A study of Homo sapiens with 32 samples.

Results

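The ATF4 stress and amino acid genes are 38 human genes that are induced, or act, downstream of the transcription factor ATF4. They were chosen by symbol as genes of amino acid synthesis, amino acid transport, tRNA charging and the CHOP (DDIT3) axis, with ATF3 left out, and all 38 were found in each of 6 count tables, the largest of which has 57445 gene entries. By role they are 7 regulators (ATF4, ATF5, DDIT3, CEBPB, CEBPG, TRIB3 and NUPR1), 6 genes of serine, glycine and one-carbon metabolism (PHGDH, PSAT1, PSPH, SHMT2, MTHFD2 and ALDH1L2), 5 other synthesis genes (ASNS, ALDH18A1, PYCR1, CTH and CBS), 6 transporters (SLC3A2, SLC7A1, SLC7A5, SLC1A4, SLC1A5 and SLC38A2), 8 tRNA synthetases (WARS, SARS, GARS, AARS, MARS, EPRS, CARS and YARS) and 6 stress effectors (DDIT4, CHAC1, SESN2, PPP1R15A, VLDLR and STC2).

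Their mRNA was measured by bulk RNA sequencing in 32 libraries of 4 human prostate cancer cell lines obtained from ATCC, in 16 groups of 2 libraries. LNCaP is a hormone-responsive line, C4-2 is a castration-resistant derivative of it, 22Rv1 is also castration-resistant, and PC3 is a hormone-independent line without p53. In the first experiment each of the 4 lines carried shCSN5, an shRNA against the CSN5 gene COPS5, and was set against the same line with a scramble shRNA. In the second, LNCaP and 22Rv1 had 5 µM and PC3 had 10 µM of CSN5i-3, an inhibitor of CSN5, and each was set against DMSO. The C4-2 pair of the second experiment has labels that oppose each other: the libraries titled C5i are described as DMSO, and those titled NT are described as 1 µM CSN5i-3. This pair is therefore given only as titled C5i against titled NT, and every sign turns round if the descriptions are right. For replicate 2 of PC3 shCSN5, 1 label field speaks of drug-treated cells while title and description give shCSN5, and the library was used as titled. The duration of treatment is not given in the labels, and neither is whether replicates came from separate cultures. A p-value here weighs a change against a spread estimated from 2 libraries a group and moderated over all genes. That spread may be technical.

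CSN5 carries the enzymatic activity of the COP9 signalosome, a complex that takes the ubiquitin-like protein NEDD8 off cullin-RING ubiquitin ligases. In the integrated stress response, kinases that sense amino acid shortage, unfolded protein in the endoplasmic reticulum, double-stranded RNA or haem shortage phosphorylate the initiation factor eIF2, which lowers general translation and raises translation of the ATF4 message. ATF4 then pairs with C/EBP family proteins and induces genes that make, import and charge amino acids, together with DDIT3, a pro-apoptotic factor, and PPP1R15A (GADD34), which brings a phosphatase back to eIF2. In tumour cells, prostate cancer cells among them, this programme is known for sustaining growth when nutrients are short. The libraries measure mRNA, so neither eIF2 phosphorylation nor ATF4 protein is part of these data.

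The 38 genes differ in what lies at their start sites. RefSeq promoter windows of 300 bases (250 before and 50 after each start, GRCh38.p14) were found for 32 of them. NUPR1, PSPH, SHMT2, ALDH1L2, PYCR1 and YARS had no window. PSPH, SHMT2 and ALDH1L2 of the serine, glycine and one-carbon role were thus not searched, and the searched genes of that role had no TGATGNAA match. TGATGNAA, the core of the C/EBP-ATF response element through which ATF4 acts on amino acid genes, was searched on both strands and was present in the windows of 11 of the 32 genes (34.4%), against 1217 of 27305 genes with a window (4.46%). TGACGTCA, the full cAMP response element, was present in 1 of the 32 (PPP1R15A, 3.12%) and in 614 of the 27305 genes (2.25%). The 32 genes have 52 windows, and a gene counted if any of its windows matched. The number of windows per gene was not made equal between the 32 and the 27305 genes. These matches are shown because the 11 genes come from 5 of the 6 roles and because their mRNAs are followed below. Each line runs 5′ to 3′ on the strand of the gene, with the match in capitals, and a match on the opposite strand appears as its reverse complement.
CEBPG, chr19:33374061-33374088, plus strand: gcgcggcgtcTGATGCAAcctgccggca
ASNS, chr7:97872459-97872486, minus strand: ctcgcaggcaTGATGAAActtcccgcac
SLC3A2, chr11:62881726-62881748, plus strand: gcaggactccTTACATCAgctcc
SLC7A1, chr13:29595664-29595691, minus strand: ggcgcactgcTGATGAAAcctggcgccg
SLC1A4, chr2:64989382-64989409, plus strand: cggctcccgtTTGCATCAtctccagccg
SLC1A5, chr19:46784894-46784921, minus strand: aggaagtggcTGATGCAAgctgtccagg
GARS, chr7:30594835-30594862, plus strand: tacgcggcgaTTTCATCAtgctccgagc
AARS, chr16:70289676-70289703, minus strand: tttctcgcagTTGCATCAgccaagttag
MARS, chr12:57488054-57488081, plus strand: ccggttccggTTGCATCAgcgagggatt
CARS, chr11:3057408-3057435, minus strand: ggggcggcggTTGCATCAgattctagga
CHAC1, chr15:40953252-40953279, plus strand: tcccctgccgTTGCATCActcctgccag
PPP1R15A, chr19:48872353-48872380, plus strand: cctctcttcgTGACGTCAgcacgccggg

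The 250 bases upstream of ASNS, CHAC1 and PPP1R15A are given whole, with the match in capitals, because these 3 genes return in several comparisons. Neither motif overlaps the other in these windows. A match says only that the letters are there.
ASNS, chr7:97872409-97872658, minus strand: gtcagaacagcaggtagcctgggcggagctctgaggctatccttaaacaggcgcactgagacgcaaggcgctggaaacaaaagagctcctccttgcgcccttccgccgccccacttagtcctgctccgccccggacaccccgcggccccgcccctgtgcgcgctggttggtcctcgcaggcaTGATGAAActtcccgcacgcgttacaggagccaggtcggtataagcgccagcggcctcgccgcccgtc
CHAC1, chr15:40953221-40953470, plus strand: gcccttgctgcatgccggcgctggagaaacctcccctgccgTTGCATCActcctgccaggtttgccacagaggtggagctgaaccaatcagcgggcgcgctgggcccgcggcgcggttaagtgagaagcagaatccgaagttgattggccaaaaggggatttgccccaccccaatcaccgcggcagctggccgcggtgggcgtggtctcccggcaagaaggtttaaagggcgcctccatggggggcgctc
PPP1R15A, chr19:48872171-48872420, plus strand: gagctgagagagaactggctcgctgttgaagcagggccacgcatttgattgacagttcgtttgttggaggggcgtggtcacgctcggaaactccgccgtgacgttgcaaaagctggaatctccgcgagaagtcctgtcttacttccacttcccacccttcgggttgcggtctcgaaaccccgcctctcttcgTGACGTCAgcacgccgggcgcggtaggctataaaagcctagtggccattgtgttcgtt

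The shRNA libraries held 20.6 to 32.5 M counts each and the inhibitor libraries 29.5 to 50.9 M. COPS5 checked the labels of the knockdown. It had 2.9 and 1.79 CPM (read counts scaled to a common depth per 1e+06 counts, with TMM factors from the 4 libraries of a comparison) in LNCaP shCSN5 libraries, against 53.4 and 52.7 CPM in scramble libraries, and its log2 fold change was -4.5 ± 0.26 in LNCaP, -3.56 ± 0.12 in C4-2, -2.68 ± 0.11 in 22Rv1 and -3.18 ± 0.12 in PC3 (± SE, adjusted p = 0.00021, 1.2e-05, 3.4e-08 and 0.0022, edgeR's quasi-likelihood test). Its mRNA does not check an enzyme inhibitor. The log2 fold change was 0.11 in LNCaP, 0.16 in 22Rv1, 0.48 in PC3 and -0.38 in the titled C5i pair. KLK3, a luminal prostate marker, had 3312 and 3413 CPM in LNCaP scramble libraries and 0.0325 and 0 CPM in PC3 scramble libraries, and PC3-type markers (VIM, CAV1, CD44, AXL and ANXA1) summed to 3258.1 and 3281.0 CPM in PC3 scramble and 7.12 and 7.45 CPM in LNCaP scramble libraries. Of the leukocyte markers PTPRC, CD3E and CD68, CD68, which is also a general lysosomal gene, stood apart and had 25 and 24.6 CPM in LNCaP CSN5i-3 libraries, against 0.28 and 0.358 CPM in DMSO libraries. It had 51.1 and 52.6 CPM in titled C5i libraries, against 6.8 and 6.78 CPM in titled NT libraries. In the other 6 pairs PTPRC reached no more than 2.42 CPM and CD3E no more than 0.0386 CPM. The part of CD68 in the results below was not tested.

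**Figure D1:**
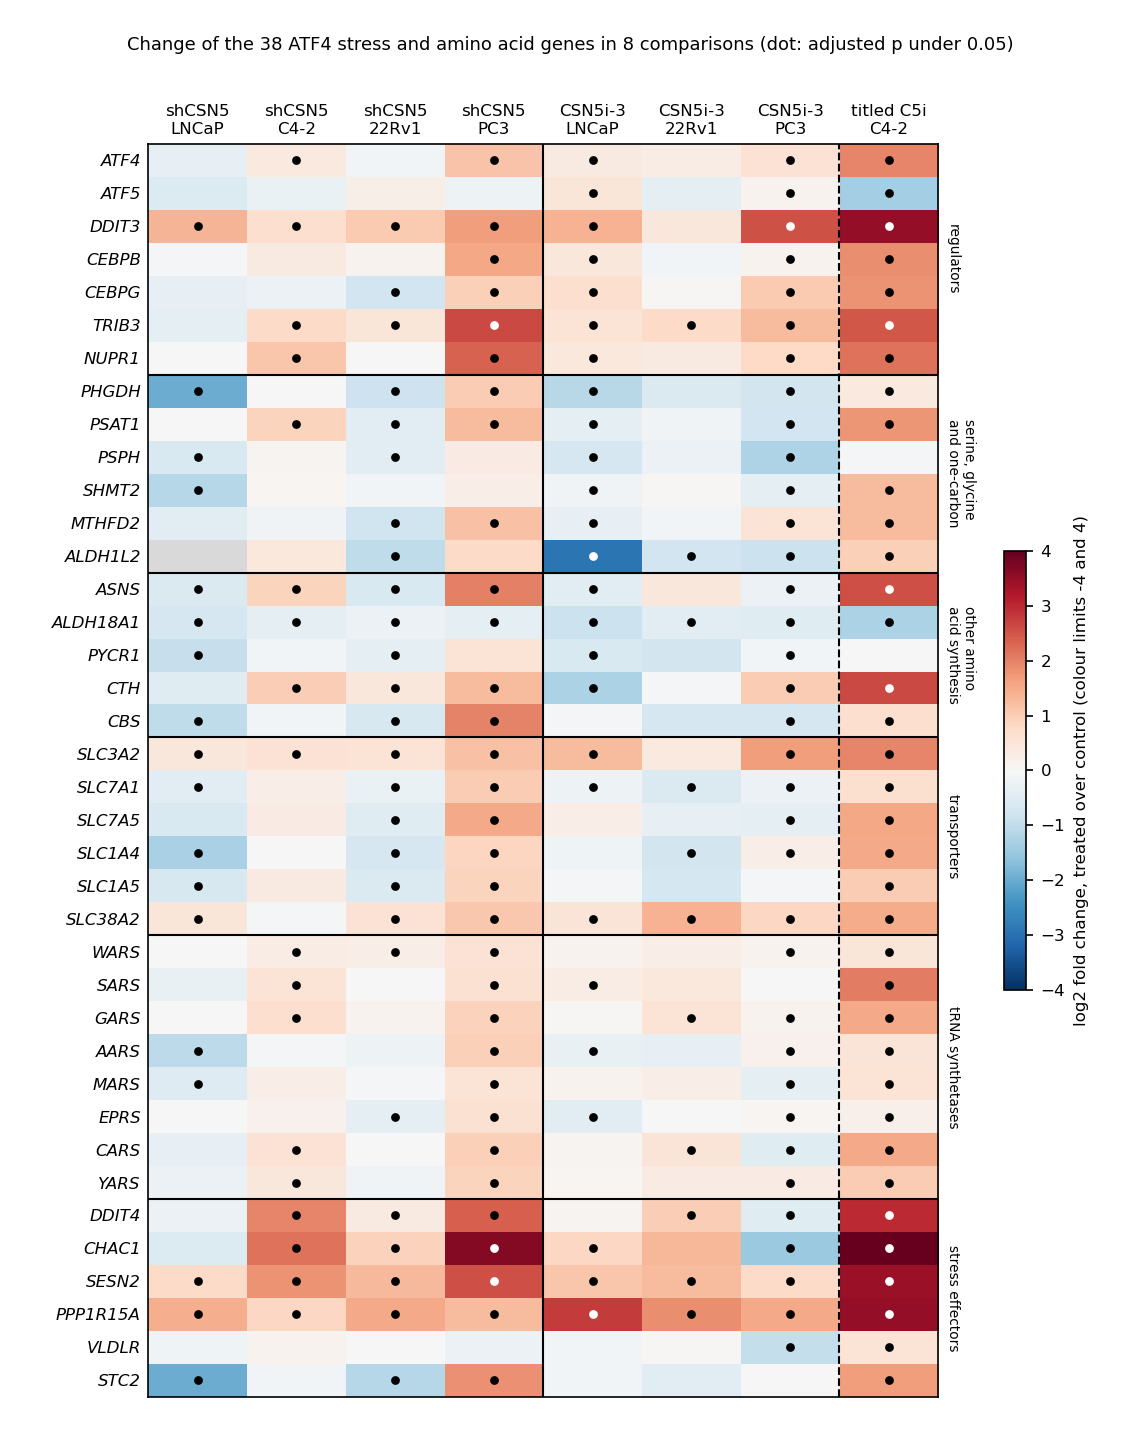
Log2 fold change of each of the 38 genes (down the page, by role) in each of 8 treated against control pairs (across), as colour, red for higher and blue for lower in the treated libraries. Dots mark an adjusted p under 0.05 (edgeR, all genes tested), and grey marks ALDH1L2, too low to test in the LNCaP knockdown. Red fills the PC3 shCSN5 and titled C5i columns, where 31 and 34 members rose, and the LNCaP and 22Rv1 shCSN5 columns mix red and blue.

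Knockdown of CSN5 moved the 38 genes in different directions in the 4 lines. In PC3 shCSN5 cells 31 members rose and 1 fell, where 10.3% of all genes tested rose and 6.41% fell (16.7% together), and the median log2 change was 1.02 over the members and 0.04 over all genes. In C4-2 shCSN5 cells 17 rose and 1 fell (15.7% and 16.2% of all genes, 32% together), with a median of 0.34 against -0.02 over all genes. In 22Rv1 shCSN5 cells 10 rose and 16 fell (22.6% and 21.3% of all genes, 43.9% together), with a median of -0.11 against 0.02. In LNCaP shCSN5 cells 5 of 37 rose and 13 fell (18.3% and 17.4% of all genes, 35.7% together), with a median of -0.39 against -0.01. ALDH1L2 was too low to test there, with 7 and 3 counts in the shCSN5 libraries and 16 and 10 counts in the scramble libraries. Throughout, rose and fell mean an adjusted p under 0.05 in edgeR's quasi-likelihood test over all genes. A comparison of 4 libraries has 2 residual degrees of freedom, and edgeR draws each gene's spread toward that of all genes. The LNCaP count rests on its libraries. It was larger without either shCSN5 replicate and smaller without either scramble replicate, and the share of all genes called moved the same way. Of the 17 LNCaP calls followed through the alternative analyses, those of AARS, DDIT3, PHGDH, PPP1R15A, PYCR1, SHMT2, SLC1A4 and STC2 passed in every one. The other 9 (ALDH18A1, ASNS, MARS, PSPH, SESN2, SLC1A5, SLC38A2, SLC3A2 and SLC7A1) were lost in at least 1. In bulk RNA, fewer cells of a type and less RNA per cell cannot be told apart.

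In LNCaP shCSN5 cells the median log2 change was below 0 in each of the 6 roles, and differences between roles were not tested. None of the 11 serine, one-carbon and other synthesis genes rose in LNCaP shCSN5 cells, where 7 of the 10 tested fell, and in 22Rv1 shCSN5 cells 9 of the 11 fell and 1 rose. Among the 13 regulators and stress effectors, 3 rose and 1 fell in LNCaP shCSN5 cells, and 6 rose and 2 fell in 22Rv1 shCSN5 cells. In PC3 shCSN5 cells no role was split, apart from ALDH18A1: 6 of 7 regulators, 3 of 6 serine and one-carbon genes, 3 of 5 other synthesis genes, all 6 transporters, all 8 tRNA synthetases and 5 of 6 stress effectors rose. The 11 genes with a TGATGNAA match all rose in PC3 shCSN5 cells, as did 18 of the 21 genes whose windows had none. In C4-2 shCSN5 cells 5 of the 11 rose and none fell, and 10 of the 21 rose and 1 fell. In LNCaP shCSN5 cells 1 of the 11 rose and 6 fell, and 4 of the 21 rose and 4 fell. In 22Rv1 shCSN5 cells 2 of the 11 rose and 5 fell, and 8 of the 21 rose and 8 fell. These counts stand beside the shares of all genes given above, and whether genes with and without a match differ was not tested.

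CSN5i-3 left the median of the members near that of all genes in each line with agreed labels. At 10 µM in PC3, 19 members rose and 16 fell, where 38.5% of all genes rose and 38.5% fell (77.1% together), with a median of 0.05 over the members and -0.01 over all genes. At 5 µM in LNCaP, 13 rose and 13 fell (26.2% and 26.5% of all genes, 52.6% together, medians 0.06 and 0). At 5 µM in 22Rv1, 7 rose and 4 fell (11.8% and 12.2% of all genes, 24% together, medians 0.05 and -0.04). That last count was larger without CSN5i-3 replicate 1 and smaller without either DMSO replicate, and the share of all genes called moved the same way. In that pair the calls of PPP1R15A, SESN2 and SLC38A2 passed in every alternative, and most of the others were lost in at least 1. In the titled C5i libraries of C4-2, 34 members were higher and 2 lower than in the titled NT libraries (37% and 37.9% of all genes, 74.9% together), with a median of 1.51 against -0.01. Beside these medians stand the counts by role, which were not tested against each other. All 7 regulators rose in LNCaP and in PC3 with CSN5i-3, while all 6 serine and one-carbon genes fell in LNCaP and 5 of the 6 fell in PC3.

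PPP1R15A, which encodes the stress-induced partner of the eIF2 phosphatase, rose in all 7 pairs with agreed labels and was higher in titled C5i libraries. It had 55.1 and 55 CPM in LNCaP CSN5i-3 libraries, against 7.29 and 8.37 CPM in DMSO libraries, a log2 fold change of 2.81 ± 0.096 (adjusted p = 1.4e-06). It had 98.1 and 92.7 CPM in 22Rv1 shCSN5 libraries, against 35.7 and 30.8 CPM in scramble libraries (1.52 ± 0.098, adjusted p = 8.1e-07). Both treated libraries lay well above both controls in each case, and the same held in 22Rv1 with CSN5i-3, where it had 116 and 93.5 CPM against 27.8 and 29.6 CPM with DMSO (1.87 ± 0.17, adjusted p = 0.0014). In LNCaP the knockdown moved it by 1.44 ± 0.18 (adjusted p = 0.0024), with 11.4 and 13 CPM in shCSN5 libraries and 4.31 and 4.7 CPM in scramble libraries. In PC3 it had 148 and 167 CPM in shCSN5 libraries, against 59.6 and 73.3 CPM in scramble libraries, and 682 and 708 CPM in CSN5i-3 libraries, against 244 and 243 CPM in DMSO libraries. Its call in C4-2 shCSN5 cells (0.83 on the log2 scale) was lost without scramble replicate 1. It was 1 of 3 members for which the test of a difference in knockdown effect between the 4 lines did not pass (adjusted p = 0.074).

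SESN2, a sestrin that restrains mTORC1 when leucine is short, likewise rose in all 7 pairs and was higher in titled C5i libraries. It had 59 and 51.3 CPM in C4-2 shCSN5 libraries, against 14.3 and 17.4 CPM in scramble libraries (1.8 ± 0.15, adjusted p = 0.00018). It had 219.97 and 216 CPM in LNCaP CSN5i-3 libraries, against 94.8 and 106 CPM in DMSO libraries (1.12 ± 0.073, adjusted p = 2.5e-05). No control library reached a treated one in these pairs, and in LNCaP shCSN5 libraries the gap was narrower, with 72.7 and 95.8 CPM against 51.9 and 47 CPM (0.77 ± 0.18, adjusted p = 0.02), a call lost without scramble replicate 1 and without scramble replicate 2. In PC3 shCSN5 libraries SESN2 had 38.5 and 45.8 CPM, against 5.16 and 8.97 CPM in scramble libraries. SESN2 is also a p53 target, and the part of p53 in these changes was not tested.

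**Figure D2:**
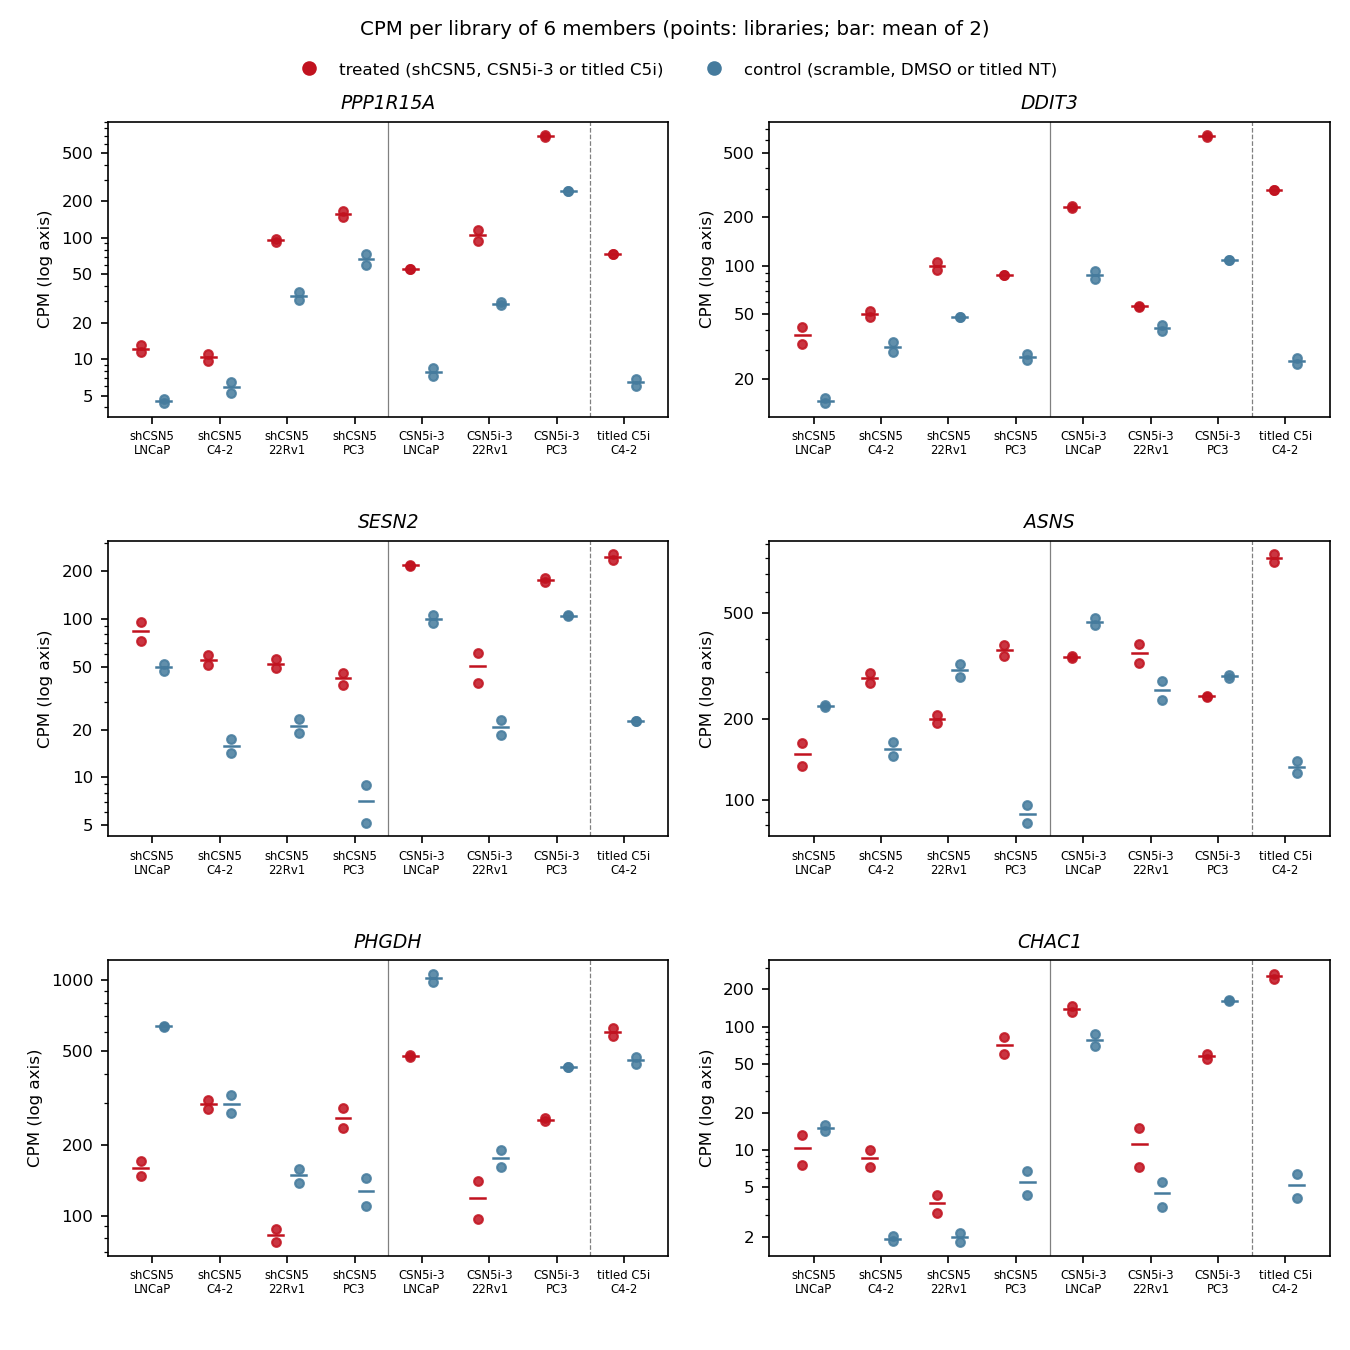
CPM of 6 members in every library (log axis), 1 panel per gene and 1 position per line and experiment, with treated libraries in red on the left and control libraries in blue on the right of each position. PPP1R15A and SESN2 sit higher in red throughout, while PHGDH is lower in red in LNCaP and higher in red in PC3 shCSN5, and CHAC1 is lower in red in PC3 with CSN5i-3 and in LNCaP shCSN5.

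DDIT3 (CHOP) rose in every pair with agreed labels apart from 22Rv1 with CSN5i-3. The PC3 inhibitor pair gave 629 and 644 CPM in CSN5i-3 libraries, against 108 and 108 CPM in DMSO libraries (2.56 ± 0.026, adjusted p = 9e-60). In knockdown cells the changes were 1.35 ± 0.18 in LNCaP (adjusted p = 0.0034), 0.68 ± 0.13 in C4-2 (adjusted p = 0.0064), 1.05 ± 0.09 in 22Rv1 (adjusted p = 5.3e-06) and 1.68 ± 0.11 in PC3 (adjusted p = 0.0029). The C4-2 call was lost without shCSN5 replicate 2. In 22Rv1 with CSN5i-3 it had 56.7 and 56 CPM, against 43.1 and 39.7 CPM with DMSO, so that both treated libraries lay above both controls while the change of 0.44 ± 0.15 did not pass (adjusted p = 0.082). LNCaP with CSN5i-3 gave 1.4 ± 0.075 (adjusted p = 9.5e-06), and titled C5i libraries gave 294 and 292 CPM, against 24.8 and 27 CPM in titled NT libraries (3.5 ± 0.083, adjusted p = 5.5e-11).

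ATF4 itself did not rise in every line. Its mRNA had 379.9 and 374 CPM in PC3 shCSN5 libraries, against 167 and 174 CPM in scramble libraries (1.14 ± 0.088, adjusted p = 0.0038), and 390.3 and 388 CPM in C4-2 shCSN5 libraries, against 300.2 and 293 CPM in scramble libraries (0.39 ± 0.085, adjusted p = 0.011). The C4-2 call was lost without shCSN5 replicate 1 (adjusted p = 0.11) and without shCSN5 replicate 2 (adjusted p = 0.15), and with a replicate block (adjusted p = 0.11). In LNCaP and 22Rv1 shCSN5 cells the change did not pass, at -0.34 ± 0.12 (adjusted p = 0.065) and -0.10 ± 0.075 (adjusted p = 0.29). With CSN5i-3 it rose by 0.36 ± 0.049 in LNCaP (adjusted p = 0.00082) and by 0.58 ± 0.022 in PC3 (adjusted p = 1.8e-31), and was 0.29 ± 0.12 in 22Rv1 (adjusted p = 0.14). Titled C5i libraries had 1805 and 1864 CPM, against 473 and 483 CPM in titled NT libraries (1.94 ± 0.06, adjusted p = 3.3e-10). ATF4 has processed copies elsewhere in the genome, and how the authors' counting split reads between them is not given in the sources used here.

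TRIB3, a pseudokinase induced by DDIT3 and ATF4 that feeds back on ATF4, rose in every pair with agreed labels except LNCaP shCSN5, where it was -0.39. It had 299.8 and 322 CPM in PC3 shCSN5 libraries, against 43.7 and 56 CPM in scramble libraries (2.64 ± 0.15, adjusted p = 0.0026). It had 2068 and 2094 CPM in PC3 CSN5i-3 libraries, against 874 and 857 CPM in DMSO libraries (1.27 ± 0.022, adjusted p = 1e-48). NUPR1, a stress-induced chromatin protein, rose in PC3 and C4-2 shCSN5 cells, with 51.6 and 66.4 CPM against 9.58 and 13.3 CPM in PC3 scramble libraries, and was -0.01 in LNCaP and 0.00 in 22Rv1. CEBPG, the C/EBP protein that pairs with ATF4 at amino acid genes, fell in 22Rv1 shCSN5 cells, with 84.5 and 88.3 CPM against 139 and 158 CPM in scramble libraries (-0.78 ± 0.085, adjusted p = 3.2e-05). It rose by 0.96 in PC3 shCSN5 cells, and by 0.68 ± 0.078 in LNCaP with CSN5i-3 (adjusted p = 0.00036). CEBPB rose in PC3 shCSN5 cells (1.55), LNCaP with CSN5i-3 (0.46) and PC3 with CSN5i-3 (0.14). ATF5, a bZIP factor of the mitochondrial stress response, passed in no knockdown, rose in LNCaP and PC3 with CSN5i-3 (0.48 and 0.14), and was the only regulator lower in titled C5i libraries (-1.35 ± 0.098, adjusted p = 2.7e-07).

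The other stress effectors varied more by line. CHAC1, which breaks down glutathione, had 59.7 and 82.3 CPM in PC3 shCSN5 libraries, against 4.32 and 6.81 CPM in scramble libraries (3.68 ± 0.28, adjusted p = 0.0038). With CSN5i-3 in PC3 it had 55 and 59.8 CPM, against 164 and 160.1 CPM with DMSO (-1.5 ± 0.034, adjusted p = 1.2e-42). The treated libraries were thus the higher ones under knockdown and the lower ones with the inhibitor, in the same line. DDIT4 (REDD1), an inhibitor of mTORC1, did the same in PC3, with 2.39 ± 0.18 under knockdown (adjusted p = 0.0038) and -0.50 ± 0.032 with CSN5i-3 (adjusted p = 2.2e-21). It also rose in C4-2 shCSN5 cells, with 147 and 143 CPM against 35.5 and 38.9 CPM in scramble libraries (1.96 ± 0.1, adjusted p = 6.2e-05). STC2, a secreted glycoprotein, fell in LNCaP shCSN5 cells, with 18.1 and 22.6 CPM against 81.6 and 79.1 CPM in scramble libraries (-1.98 ± 0.17, adjusted p = 0.00066). It fell in 22Rv1 shCSN5 cells too (-1.13 ± 0.15, adjusted p = 0.00016), and in PC3 shCSN5 libraries it had 289 and 339 CPM, against 82.4 and 94.3 CPM in scramble libraries (1.83 ± 0.13, adjusted p = 0.0031). VLDLR, a lipoprotein receptor, passed in no knockdown and fell in PC3 with CSN5i-3 (-0.94 ± 0.09, adjusted p = 5e-14).

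Serine synthesis genes moved in opposite directions in different lines. PHGDH, the first enzyme of serine synthesis, had 147 and 169.9 CPM in LNCaP shCSN5 libraries, against 639.7 and 631 CPM in scramble libraries (-2.0 ± 0.13, adjusted p = 0.00026). It had 235 and 285 CPM in PC3 shCSN5 libraries, against 109.9 and 145 CPM in scramble libraries (1.03 ± 0.17, adjusted p = 0.019). Both shCSN5 libraries were below the controls in LNCaP and above them in PC3. PHGDH also fell in 22Rv1 shCSN5 cells (-0.84 ± 0.095, adjusted p = 4.2e-05), in LNCaP with CSN5i-3 (-1.1 ± 0.061, adjusted p = 1.2e-05) and in PC3 with CSN5i-3 (-0.74 ± 0.025, adjusted p = 2.6e-34), and was -0.01 in C4-2 shCSN5 cells.

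PSAT1, the second enzyme of the pathway, rose in PC3 and C4-2 shCSN5 cells, with 289 and 267 CPM against 119 and 114 CPM in PC3 scramble libraries (1.26 ± 0.095, adjusted p = 0.0038). In PC3 with CSN5i-3 it fell, with 131 and 132 CPM against 224 and 221 CPM in DMSO libraries (-0.76 ± 0.028, adjusted p = 1.3e-32). PSPH, which completes serine synthesis, rose nowhere and fell in LNCaP and 22Rv1 shCSN5 cells, and in LNCaP and PC3 with CSN5i-3, by up to 1.25 ± 0.041 in PC3 (adjusted p = 1e-34). PSPH also has near-identical copies, so its counts are uncertain. SHMT2, which makes glycine from serine in mitochondria, fell in LNCaP shCSN5 cells (-1.15 ± 0.15, adjusted p = 0.0028). MTHFD2, the next mitochondrial folate enzyme, had 204 and 215 CPM in 22Rv1 shCSN5 libraries, against 351 and 378 CPM in scramble libraries (-0.80 ± 0.078, adjusted p = 1.4e-05), and rose by 1.18 ± 0.11 in PC3 shCSN5 cells (adjusted p = 0.0055). ALDH1L2, a mitochondrial folate dehydrogenase, had its highest levels in 22Rv1, with 85.8 and 89.1 CPM in shCSN5 libraries, against 169 and 187 CPM in scramble libraries (-1.03 ± 0.082, adjusted p = 3.1e-06), and fell with CSN5i-3 there as well (-0.76 ± 0.16, adjusted p = 0.017). In LNCaP inhibitor libraries it had 0.0261 and 0.118 CPM with CSN5i-3, against 0.559 and 0.596 CPM with DMSO, levels of a few reads.

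ASNS, which makes asparagine and is a standard readout of ATF4, split the lines in the same way. It had 379 and 344 CPM in PC3 shCSN5 libraries, against 95.4 and 81.9 CPM in scramble libraries (2.03 ± 0.12, adjusted p = 0.0026). It had 273 and 297 CPM in C4-2 shCSN5 libraries, against 164 and 146 CPM in scramble libraries (0.88 ± 0.1, adjusted p = 0.00071). It fell in LNCaP shCSN5 cells, with 163 and 133 CPM against 222 and 225 CPM in scramble libraries (-0.59 ± 0.14, adjusted p = 0.021). It also fell in 22Rv1 shCSN5 cells (-0.61 ± 0.083, adjusted p = 0.00017). With CSN5i-3 it fell in LNCaP (-0.45 ± 0.059, adjusted p = 0.00073) and in PC3 (-0.25 ± 0.025, adjusted p = 2.8e-13), where it had 242 and 244 CPM against 286 and 292 CPM with DMSO. In 22Rv1 both CSN5i-3 libraries, at 323 and 382 CPM, lay above both DMSO libraries, at 277 and 235 CPM, and the change of 0.46 ± 0.15 did not pass (adjusted p = 0.076). Titled C5i libraries had 827 and 774 CPM, against 126 and 139 CPM in titled NT libraries (2.59 ± 0.076, adjusted p = 2.3e-10).

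ALDH18A1, which makes the proline precursor from glutamate, moved the other way from PPP1R15A and SESN2. It fell in all 7 pairs with agreed labels and was lower in titled C5i libraries. It had 92 and 90.7 CPM in LNCaP CSN5i-3 libraries, against 172 and 161 CPM in DMSO libraries (-0.87 ± 0.067, adjusted p = 5.5e-05), and 85.7 and 85.2 CPM in PC3 shCSN5 libraries, against 112 and 110.4 CPM in scramble libraries (-0.38 ± 0.091, adjusted p = 0.044). No treated library reached a control one in either pair. The call in 22Rv1 with CSN5i-3 (-0.45 ± 0.13, adjusted p = 0.049) was lost in 7 of 10 alternative analyses and that in PC3 shCSN5 cells in 4 of 10, total-count scaling among them. The call in C4-2 shCSN5 cells was lost in 3 of 11, without shCSN5 replicate 1, without shCSN5 replicate 2 and with a replicate block. It was lost in 2 of 10 in 22Rv1 shCSN5 cells, without shCSN5 replicate 1 and without replicate 2, and in 2 of 10 in LNCaP shCSN5 cells, without scramble replicate 1 and without replicate 2. The sign stayed negative in each. PYCR1, which completes proline synthesis, fell in LNCaP shCSN5 cells (-0.92 ± 0.22, adjusted p = 0.022) and was not higher by the test in any pair. CTH, which makes cysteine from cystathionine, rose in C4-2, 22Rv1 and PC3 shCSN5 cells, with 33.4 and 33.6 CPM against 14.1 and 14.1 CPM in PC3 scramble libraries (1.25 ± 0.12, adjusted p = 0.0065). It fell in LNCaP with CSN5i-3, with 8.94 and 9.14 CPM against 23.7 and 20.2 CPM in DMSO libraries (-1.28 ± 0.11, adjusted p = 9.1e-05), and rose in PC3 with CSN5i-3, with 80.9 and 80.7 CPM against 39.8 and 41.1 CPM in DMSO libraries (1.0 ± 0.038, adjusted p = 2.2e-31). CBS, the enzyme before CTH, has a near-identical copy in some annotations, so its values are uncertain. It was low in PC3 scramble libraries, at 2.83 and 4.08 CPM, and had 12.5 and 14.6 CPM in PC3 shCSN5 libraries (1.98 ± 0.23, adjusted p = 0.0092).

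Of the transporters, SLC3A2, the heavy chain that carries SLC7A5 to the membrane, rose in every pair with agreed labels except 22Rv1 with CSN5i-3 (0.40). It had 1223 and 1233 CPM in PC3 CSN5i-3 libraries, against 379.7 and 386 CPM in DMSO libraries (1.68 ± 0.023, adjusted p = 8.5e-54), and 544 and 523 CPM in LNCaP CSN5i-3 libraries, against 205 and 244 CPM in DMSO libraries (1.25 ± 0.088, adjusted p = 3.6e-05). The SLC3A2 call in LNCaP shCSN5 cells was lost in 5 of 10 alternatives, total-count scaling and a replicate block among them. SLC7A5 (LAT1), the partner of SLC3A2, did not follow it throughout. SLC7A5 rose in PC3 shCSN5 cells (1.51), fell in 22Rv1 shCSN5 cells (-0.49 ± 0.12, adjusted p = 0.0078) and fell in PC3 with CSN5i-3, with 291 and 292 CPM against 379 and 371 CPM in DMSO libraries (-0.36 ± 0.024, adjusted p = 4.8e-20). SLC38A2 (SNAT2), a neutral amino acid importer, had 1641 and 1969.6 CPM in 22Rv1 CSN5i-3 libraries, against 741 and 625 CPM in DMSO libraries (1.4 ± 0.17, adjusted p = 0.0026), and 2289 and 2042 CPM in PC3 shCSN5 libraries, against 1087 and 952 CPM in scramble libraries (1.09 ± 0.11, adjusted p = 0.0074). C4-2 shCSN5 was the only pair in which it did not rise, at -0.06. Its call in LNCaP shCSN5 cells was lost in 3 of 10 alternatives, with a replicate block and without either scramble replicate. SLC1A4 and SLC1A5, exchangers of alanine, serine, cysteine and glutamine, fell together in LNCaP and 22Rv1 shCSN5 cells. SLC1A4 had 7.15 and 5.81 CPM in LNCaP shCSN5 libraries, against 15.1 and 16.5 CPM in scramble libraries (-1.29 ± 0.18, adjusted p = 0.004). In PC3 shCSN5 cells both rose, SLC1A4 by 0.86 and SLC1A5 by 0.89. SLC7A1, the cationic amino acid carrier, fell in LNCaP and 22Rv1 in both experiments and in PC3 with CSN5i-3 (-0.23 ± 0.033, adjusted p = 8.1e-09), and rose in PC3 shCSN5 cells (1.0 ± 0.11, adjusted p = 0.0076).

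All 8 tRNA synthetases rose in PC3 shCSN5 cells, by 0.55 (MARS) to 0.94 (AARS and CARS) on the log2 scale. CARS, for cysteine, had 176 and 176 CPM in PC3 shCSN5 libraries, against 91.1 and 93 CPM in scramble libraries (0.94 ± 0.089, adjusted p = 0.006), with no overlap between the groups. In C4-2 shCSN5 cells 5 of the 8 rose, GARS by 0.67 ± 0.099 (adjusted p = 0.0022). In LNCaP shCSN5 cells none rose, and AARS fell, with 426 and 392 CPM against 834 and 857 CPM in scramble libraries (-1.05 ± 0.11, adjusted p = 0.0014). The 12 other cytosolic synthetases, which are not members, counted 2 higher and 1 lower in PC3 shCSN5 cells (10.3% and 6.41% of all genes), and of 17 mitochondrial synthetases none was higher and 2 were lower. In titled C5i libraries all 8 members were higher, SARS with 822 and 802 CPM against 190.3 and 202 CPM in titled NT libraries (2.05 ± 0.067, adjusted p = 5e-10), while 2 of the 12 other cytosolic synthetases were higher and 9 lower, and none of the 17 mitochondrial ones was higher and 14 were lower. In that pair 37% of all genes were higher and 37.9% lower, 74.9% together. The difference between these lists was not tested.

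**Figure D3:**
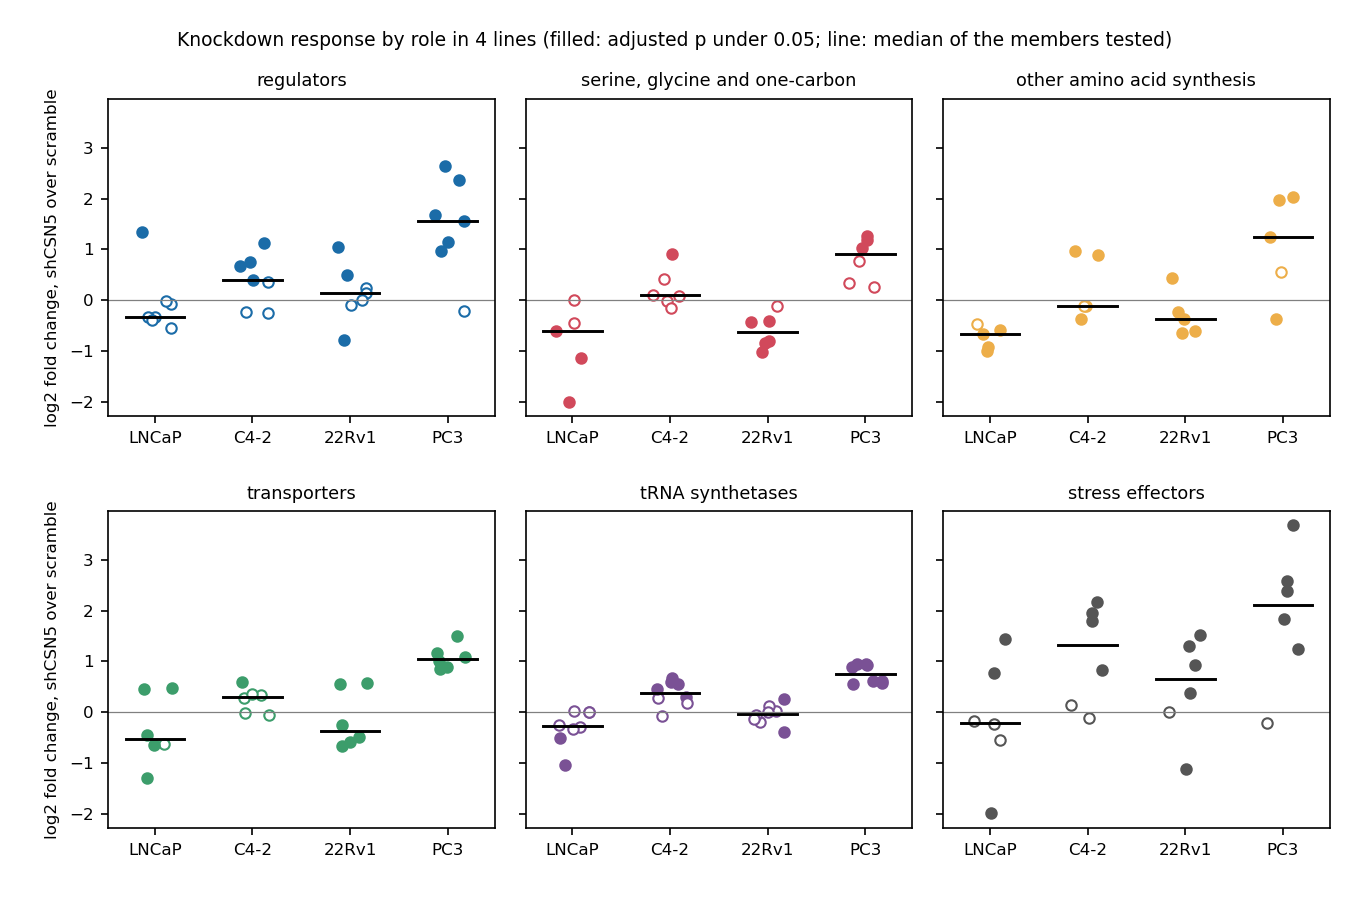
Log2 fold change of shCSN5 over scramble for each member, in 6 panels by role, with the 4 lines along each x axis; filled points passed the test (adjusted p under 0.05) and the short lines are medians. In PC3 nearly all points lie above 0, with a median of 2.11 for stress effectors, and in LNCaP the medians of all 6 roles lie below 0.

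The line differences were tested as such. In the 16 shRNA libraries the effect of shCSN5 differed between the 4 lines for 35 of the 38 members, where it did for 38.8% of all genes tested, the exceptions being ATF5 (adjusted p = 0.057), PPP1R15A and VLDLR (adjusted p = 0.35). Of the 38, 14 rose in 1 line and fell in another under knockdown. That count was not made over all genes, so whether it is unusual is not known. Higher and lower effects are read on the signed log2 scale, so that a lower effect can be a deeper fall. The effect was higher in PC3 than in LNCaP for 31 members and lower for none (11% and 13.1% of all genes, 24.1% together), with a median difference of 1.4. The difference was 3.75 ± 0.2 for STC2 (adjusted p = 2.7e-05), 2.97 ± 0.2 for TRIB3 (adjusted p = 6e-05) and 2.56 ± 0.18 for ASNS (adjusted p = 8.2e-05). DDIT3, PPP1R15A and SLC38A2 were among the 7 that did not pass. The effect was higher in 22Rv1 than in C4-2 for 1 member, SLC38A2 (0.61 ± 0.12, adjusted p = 0.013), and lower for 21 (5.53% and 7.76% of all genes, 13.3% together), with a median difference of -0.56. The differences were -1.61 ± 0.13 for DDIT4 (adjusted p = 0.00018), -1.51 ± 0.11 for ASNS (adjusted p = 0.00011) and -1.34 ± 0.1 for PSAT1 (adjusted p = 0.00011). Without 22Rv1 shCSN5 replicate 1 that count of 22 was smaller, and so was the share of all genes called.

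Averaged over the 4 lines with the line as a term, 13 members rose and 1 fell (19.5% and 14.7% of all genes, 34.2% together), with a median of 0.21. PPP1R15A changed by 1.28 ± 0.1 (adjusted p = 6.2e-07), DDIT3 by 1.2 ± 0.12 (adjusted p = 3.4e-06) and SESN2 by 1.61 ± 0.2 (adjusted p = 3.3e-05). ALDH18A1 was the one that fell (-0.40 ± 0.07, adjusted p = 0.00047). None of the 6 serine and one-carbon genes passed, and ASNS stood at 0.42. The libraries, not the lines, were the replicates of this fit, and differences in effect between lines went into its spread. Changes in opposite directions in different lines offset each other in such an average.

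Levels in the scramble controls differed between lines too, as they did for most genes tested. The count of members called in either direction was near the share of all genes called in PC3 against LNCaP. It was under that share in 22Rv1 against C4-2. In scramble libraries 7 members were higher and 25 lower in PC3 than in LNCaP (41.6% and 38.2% of all genes, 79.7% together), with a median of -0.89 against 0.06 over all genes. DDIT4 had 4.3 and 5.62 CPM in PC3, against 200.02 and 192 CPM in LNCaP (-5.31 ± 0.15, adjusted p = 4.7e-06). PPP1R15A was the reverse, with 57.6 and 70.6 CPM in PC3, against 4.41 and 4.81 CPM in LNCaP (3.8 ± 0.16, adjusted p = 1.2e-05). CBS and NUPR1 were lower in PC3, at -6.08 ± 0.18 and -4.34 ± 0.17 (adjusted p = 5.2e-06 and 1.1e-05). In 22Rv1 10 members were higher and 10 lower than in C4-2 (35.5% and 29.8% of all genes, 65.2% together; 13 and 8 with total-count scaling). ALDH1L2 had 161 and 175 CPM in 22Rv1, against 1.06 and 1.3 CPM in C4-2 (7.15 ± 0.15, adjusted p = 6.2e-07). These baselines use the same scramble libraries as the knockdown effects, so the 2 were not related to each other.

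**Figure D4:**
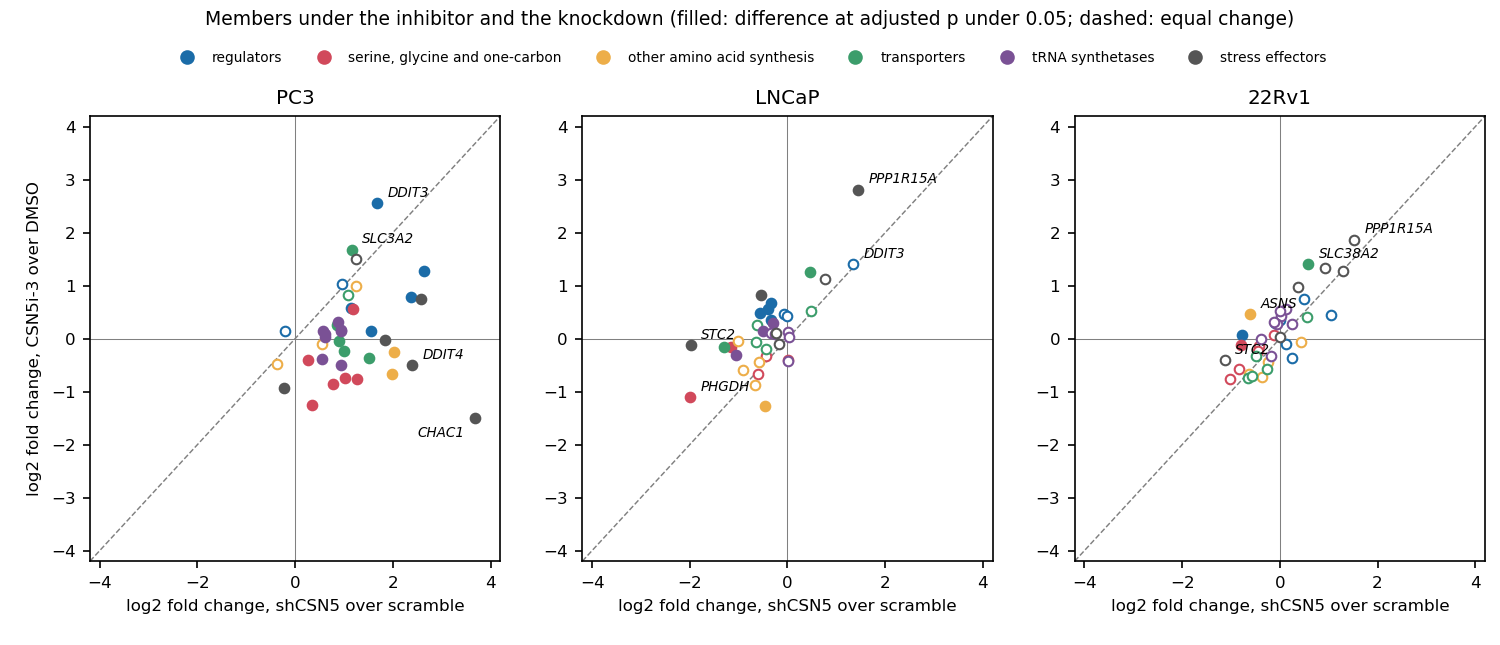
Log2 fold change of CSN5i-3 over DMSO (y axis) against that of shCSN5 over scramble (x axis) for each member, in 1 panel each for PC3, LNCaP and 22Rv1, with a line of equal change; filled points are members whose 2 effects differed (adjusted p under 0.05). In PC3 most filled points lie below the line, 29 of 31, and CHAC1 lies farthest from it, at -5.12.

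Knockdown and inhibitor were compared within a line by testing the difference of the 2 effects, which share no library. In PC3 the CSN5i-3 effect was the higher for 2 members and the lower for 29 (20.5% and 18.6% of all genes, 39.1% together), with a median difference of -0.71. CHAC1 differed by -5.12 ± 0.29 (adjusted p = 2.9e-05), DDIT4 by -2.83 ± 0.15 (adjusted p = 2.6e-05) and PSAT1 by -1.95 ± 0.094 (adjusted p = 1.4e-05). The 2 members with the higher CSN5i-3 effect were DDIT3 (0.95 ± 0.085, adjusted p = 0.00018) and SLC3A2 (0.59 ± 0.14, adjusted p = 0.013). The SLC3A2 call was lost in 3 of the alternatives, each without 1 library. The control levels of the 2 PC3 experiments, DMSO in 1 and scramble shRNA in the other, stood apart. Each experiment was scaled on its own and the gap was not tested. CHAC1 had 164 and 160.1 CPM in DMSO libraries and 4.32 and 6.81 CPM in scramble libraries, TRIB3 874 and 857 CPM and 43.7 and 56 CPM, DDIT4 128 and 124 CPM and 4.45 and 5.83 CPM, and ATF4 626 and 632 CPM and 167 and 174 CPM. The DMSO libraries were thus the higher ones for each of these 4 genes, and the part of that gap in the difference of effects was not tested.

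In LNCaP the CSN5i-3 effect was the higher for 14 members and the lower for 2 (6.83% and 14.5% of all genes, 21.3% together), or for 16 and 0 with RLE scaling, with a median difference of 0.35. STC2 differed by 1.77 ± 0.16 (adjusted p = 0.0004), PPP1R15A by 1.28 ± 0.18 (adjusted p = 0.0026) and PHGDH by 0.81 ± 0.13 (adjusted p = 0.004). The lower effects were those on CTH (-0.90 ± 0.27, adjusted p = 0.047) and PSAT1 (-0.50 ± 0.15, adjusted p = 0.045), and both calls were lost in at least 1 alternative analysis. The count of 16 was smaller without either CSN5i-3 or either scramble replicate and larger without shCSN5 replicate 2. The share of all genes called moved the same way. In 22Rv1 the effect was higher with CSN5i-3 for 4 members and lower for none (2.38% and 1.9% of all genes, 4.28% together; 4 and 1 with total-count scaling). ASNS differed by 1.09 ± 0.17 (adjusted p = 0.018), CEBPG by 0.86 ± 0.15 (adjusted p = 0.026) and MTHFD2 by 0.69 ± 0.14 (adjusted p = 0.041), and each of these 3 calls was lost in at least 1 alternative analysis. The 22Rv1 count of 4 was smaller without any 1 shCSN5, scramble or DMSO library and larger without CSN5i-3 replicate 1. The share of all genes called moved the same way.

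LNCaP and 22Rv1 had the same dose of CSN5i-3, 5 µM. The effect was higher in LNCaP for 5 members and lower for 8 (5.57% and 10% of all genes, 15.6% together; 3 and 9 with total-count scaling), with a median difference of -0.18. It was higher for DDIT3 (0.92 ± 0.13, adjusted p = 0.0036), PPP1R15A (0.91 ± 0.19, adjusted p = 0.017) and SLC3A2 (0.81 ± 0.2, adjusted p = 0.033). It was lower for CTH (-1.24 ± 0.18, adjusted p = 0.0046), ASNS (-0.95 ± 0.16, adjusted p = 0.0071) and SLC38A2 (-0.91 ± 0.17, adjusted p = 0.012). Each of these 6 calls was lost in at least 1 alternative analysis. The count of 13 was smaller without any 1 LNCaP library and without either 22Rv1 DMSO replicate, and so was the share of all genes called. PC3 had another dose and the C4-2 labels conflict, so neither was set against them.

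Other genes of the pathway were read from lists that are not members. Of 18 further ATF4 pathway genes, 8 of 16 tested rose in PC3 shCSN5 cells and none fell (10.3% and 6.41% of all genes), with SLC7A11, the cystine carrier, at 2.19 ± 0.13 (adjusted p = 0.0027). In LNCaP shCSN5 cells 3 of 16 rose and 7 fell (18.3% and 17.4% of all genes), and in 22Rv1 shCSN5 cells 2 of 16 rose and 8 fell (22.6% and 21.3%). In C4-2 shCSN5 cells 5 of 17 rose and 1 fell, with FGF21, a secreted hormone, at 3.42 ± 0.54 (adjusted p = 0.0029). Of 13 genes for eIF2 kinases, phosphatase and eIF2B, none rose and 2 fell in PC3 shCSN5 cells, 1 rose in LNCaP shCSN5 cells, EIF2AK3 (PERK, 1.48 ± 0.18, adjusted p = 0.0022), and 7 rose and 3 fell in PC3 with CSN5i-3, where 77.1% of all genes were called, so this last count is near the background. Of 15 endoplasmic reticulum chaperone genes, 2 rose and 3 fell in PC3 shCSN5 cells, and 14 rose and 1 fell in PC3 with CSN5i-3 (38.5% and 38.5% of all genes), HSPA5 (BiP) by 1.51 ± 0.022 (adjusted p = 1.3e-52). In 22Rv1 with CSN5i-3 none rose and 10 fell (11.8% and 12.2% of all genes), PDIA4 by 1.59 ± 0.14 (adjusted p = 0.0012).

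Cell cycle and p53 genes moved in the same libraries. All 10 genes of a G2/M list fell in every pair with agreed labels except PC3 shCSN5, where 8 fell. Of all genes, between 6.41% (PC3 shCSN5) and 38.5% (PC3 with CSN5i-3) fell in these pairs. The median log2 change of the list was -5.14 in LNCaP with CSN5i-3 and -0.64 in PC3 shCSN5 cells. Of 10 p53 target genes, 8 rose in LNCaP, 10 in C4-2 and 9 in 22Rv1 shCSN5 cells (18.3%, 15.7% and 22.6% of all genes). In PC3 shCSN5 cells 1 of 9 rose and 1 fell (10.3% and 6.41% of all genes), counts near the background. The part of either list in the changes of the members was not tested.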

How the data were processed

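The authors deposited 6 tables of raw counts per gene and library, and every column used is whole-number counts. Per the submitters' processing notes the reads were processed with Partek, whose version is not given, and per the labels total RNA was extracted with Direct-Zol and sequenced on Illumina instruments. Aligner, genome build, annotation and strand: not given in the sources used here. Of the tables, 4 list 57445 Ensembl identifiers, the LNCaP inhibitor table lists 21549 symbols and that of C4-2 lists 16603, in which 8 synthetase members carry newer symbols and 1 entry without a gene name was removed. The lowest gene in both symbol tables peaks at 3 counts, which leaves low genes out of them. Libraries of a group differed by more than counting error, which gives a chi-square near 1 per gene: the lowest value was 1.7 (PC3 DMSO) and the highest 65.2 (LNCaP shCSN5).

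Each comparison was tested on its own 4 libraries in R 4.3.3 with edgeR 4.0.16 (quasi-likelihood F test, TMM factors, filterByExpr at a minimum count of 10, 2 residual degrees of freedom, Benjamini-Hochberg adjusted p under 0.05 over all genes tested). The spread of each gene was moderated over all genes, so the tests do not rest on those 2 residual degrees of freedom alone. SE was computed as |log2 fold change| over the root of F. Differences between effects were interaction terms, in fits of 8 or 16 libraries. CPM are TMM-scaled within a comparison, are not corrected for gene length, and were not tested across tables. All members may be named with their CPM. SE and adjusted p may be given for up to 3 called members per direction and role, those with the smallest adjusted p. They may also be given for up to 3 per direction for differences and up to 2 per direction in other lists. ATF4, DDIT3, ASNS and COPS5 may have them too. The members so chosen were followed through the alternatives, with or without a p in the text. The members, roles, lists and motifs were chosen with earlier results of these data known. Alternatives were DESeq2 1.42.0, total-count and RLE scaling, no filter, a replicate block, a spread shared over libraries and leaving out each library. The code was tested on simulated data. Figures were drawn with matplotlib 3.10.9. Some marker genes are not reported here.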

Additional observations from a re-analysis of the deposited data

Results flagged for a closer look

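The results here are differences between 2 effects of CSN5 loss or inhibition that passed the test of the difference itself (edgeR's interaction term, adjusted p under 0.05). All are on the log2 scale, and no explanation was tested.

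The shCSN5 effect in PC3 exceeded that in LNCaP by 3.75 for STC2, 2.97 for TRIB3 and 2.56 for ASNS. Between 22Rv1 and C4-2 the difference was 0.61 for SLC38A2, -1.61 for DDIT4, -1.51 for ASNS and -1.34 for PSAT1, so that ASNS separated both pairs of lines. Over all 4 lines the effect differed for 35 of the 38 members. The SLC38A2 difference lost its call in 2 of the alternatives, each without 1 library.

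Within PC3 the CSN5i-3 effect minus the shCSN5 effect was -5.12 for CHAC1, -2.83 for DDIT4 and -1.95 for PSAT1, and 0.95 for DDIT3 and 0.59 for SLC3A2. Within LNCaP it was 1.77 for STC2, 1.28 for PPP1R15A and 0.81 for PHGDH, and -0.90 for CTH and -0.50 for PSAT1. Within 22Rv1 it was 1.09 for ASNS, 0.86 for CEBPG and 0.69 for MTHFD2. The PC3 call of SLC3A2 was lost in 3 of the alternatives, each without 1 library.

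With 5 µM CSN5i-3 the effect in LNCaP minus that in 22Rv1 was 0.92 for DDIT3, 0.91 for PPP1R15A and 0.81 for SLC3A2, and -1.24 for CTH, -0.95 for ASNS and -0.91 for SLC38A2.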

How the results depend on the processing

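Among the calls followed through the alternatives, 140 lost significance, 10 values gained it and 0 changed sign, counting each gene once per alternative. All 27 named calls in PC3 with CSN5i-3 and all 20 in the titled C5i pair passed in every alternative, as did 18 of 19 in PC3, 11 of 15 in C4-2 and 16 of 21 in 22Rv1 shCSN5 cells and 16 of 19 in LNCaP with CSN5i-3, against 8 of 17 in LNCaP shCSN5 cells and 3 of 10 in 22Rv1 with CSN5i-3. Counts of members called moved by more than 1.5 times in these settings: 22Rv1 with CSN5i-3, 11 by the main analysis, had 4 with a replicate block. CSN5i-3 minus shCSN5 in 22Rv1 (4) had 8 with no filter and 0 with the block, CSN5i-3 in LNCaP minus 22Rv1 (13) had 8 with RLE scaling and 0 with the block, and the average over lines (14) had 9 with the block. Same-numbered libraries did not deviate together in every pair (correlations of -0.64 to 0.54), so numbers were not taken to pair them. A block with crossed numbers was chosen after seeing the data. It gave 26 members in C4-2 shCSN5 cells, against 14 with the block as numbered and 18 without. It gave 32 in 22Rv1 with CSN5i-3 and 36 in the titled C5i pair. Wherever a count moved in these settings, the share of all genes called moved with it. In 22Rv1 with CSN5i-3 that share was 17.3% with the block as numbered and 62.3% with crossed numbers. In the titled C5i pair the count stayed at 36 with crossed numbers, while the share rose to 81.2%. These counts therefore do not show a change of the members alone.

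Leaving out 1 library at a time, the counts ran between 9 and 36 in LNCaP, 13 and 19 in C4-2, 20 and 28 in 22Rv1 and 28 and 34 in PC3 shCSN5 cells. They ran between 19 and 33 in LNCaP, 7 and 18 in 22Rv1 and 33 and 36 in PC3 with CSN5i-3, and between 35 and 36 in the titled C5i pair. For baselines they ran between 26 and 37 (PC3 against LNCaP) and 15 and 22 (22Rv1 against C4-2). For knockdown differences they ran between 25 and 32 (PC3 minus LNCaP), 14 and 26 (22Rv1 minus C4-2) and 32 and 36 (all 4 lines), and for the average between 10 and 15. For CSN5i-3 minus shCSN5 they ran between 27 and 33 in PC3, 8 and 29 in LNCaP and 0 and 9 in 22Rv1, and for CSN5i-3 in LNCaP minus 22Rv1 between 3 and 16. The share of all genes called changed in these fits as well, and the counts of members were not set against it. The lone library left in a group was assumed to vary like the others. Total-count scaling moved the median of all genes by -0.11 in LNCaP with CSN5i-3, -0.19 in the titled C5i pair, 0.11 in the 22Rv1 baseline, 0.17 in PC3 minus LNCaP and -0.14 in CSN5i-3 minus shCSN5 in PC3. The cause of these changes was not tested. With 2 libraries a group, differences of the size of the SE could not be seen, and ALDH1L2 in LNCaP was below what the depth could show.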
